A study of Mus musculus with 8 samples.

Results

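Tissue mineral forms where phosphate is freed outside the cell faster than inhibitors hold crystals back, and 10 genes that act on either side of that balance were followed in mouse cardiac fibroblasts kept in osteogenic differentiation medium. They were taken by symbol from the table of 24015 genes, and all 10 were present in it. They are the phosphatases Alpl and Phospho1, the ecto-nucleotidase Nt5e, the sodium-phosphate cotransporters Slc20a1 and Slc20a2, the pyrophosphate genes Enpp1 and Ank, and the secreted proteins Mgp, Ahsg and Spp1. The fibroblasts came from the hearts of wild-type C57BL/6J mice aged 8 weeks, and no group carried a transgene or a deletion. RNA was sequenced at 7, 14 and 21 days of culture in the medium and, for comparison, just before it (day 0). Each time has 2 libraries, which makes 8. All cells of days 7, 14 and 21 had the medium, so its effect and that of time in culture cannot be told apart. The labels do not state whether libraries of the same day are separate cultures, and p-values therefore measure only the spread between these samples, which may be technical.

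In mineralizing tissue, tissue-nonspecific alkaline phosphatase (the product of Alpl) cleaves inorganic pyrophosphate, a direct inhibitor of hydroxyapatite crystals, and so releases phosphate. Enpp1 makes pyrophosphate from extracellular ATP, and Ank takes part in the release of ATP and pyrophosphate from cells. Matrix Gla protein (Mgp), fetuin-A (Ahsg) and phosphorylated osteopontin (Spp1) each restrain crystal growth, and loss of Mgp or Enpp1 in mice leads to calcified arteries and soft tissue.

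Between 13399313 and 21883498 reads were assigned to genes per library. Values are normalized counts, meaning reads per gene divided by a size factor for the library, with no correction for transcript length. Replicate libraries correlated at 0.993, 0.994, 0.988 and 0.990 at days 0, 7, 14 and 21, and their differences exceeded counting error most at days 14 and 21 (chi-square over degrees of freedom 19.0 and 18.6, against 4.91 and 3.48 at days 0 and 7). All 10 cardiac fibroblast markers looked at, among them Col1a1, Pdgfra and Tcf21, had reads, with summed levels of 712489.6 to 719123 normalized counts before the medium, 481582 to 507586 after 7 days, 322572 to 366908 after 14 days and 471493 to 539298 after 21 days. The sum hides opposite moves, with 5, 4 and 5 of them called higher and 3, 5 and 3 lower at days 7, 14 and 21 than at day 0. Over all genes 27.5%, 35.2% and 29.8% were called higher and 27.9%, 35.6% and 29.5% lower. Col1a1 averaged 249947 normalized counts at day 0 and 22418 at day 14, and Tcf21 averaged 1987 and 11378. Among 8 osteoblast and osteocyte markers, Sp7 and Ibsp were listed at 0 in every library. Runx2, of the same list, stood between 162 and 324 normalized counts, and Col1a1 between 19925 and 257184. Bglap, Dmp1, Phex and Sost had 23, 63, 2 and 2 reads over all 8 libraries. An entry of 0 is not proof of silence, because Hmgcs1, a cholesterol synthesis gene used by most cells, is also listed at 0 in all 8 libraries.

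Promoter sequence from RefSeq (GRCm38.p6, 250 bases before to 50 after the annotated start) was matched for 8 of the 10 genes. It was not matched for Mgp and Slc20a2. The windows of Ahsg and Spp1, whose transcripts rose at every later time, are shown beside those of Enpp1 and Ank, the pyrophosphate pair that moved in opposite directions. Capitals mark matches on either strand to any of 6 short motifs searched for. These were the TATA box TATAAA (held by 13.6% of all 32851 promoter windows of this length), the CCAAT box CCAAT (37.4%), the glucocorticoid receptor half-site AGAACA (19.0%), the RUNX site AACCACA (5.27%), the AP-1 site TGANTCA (7.81%) and the E-box CACGTG (7.15%). No 2 matches overlapped in the windows shown.
Ahsg, chr16:22891765-22892064, plus strand: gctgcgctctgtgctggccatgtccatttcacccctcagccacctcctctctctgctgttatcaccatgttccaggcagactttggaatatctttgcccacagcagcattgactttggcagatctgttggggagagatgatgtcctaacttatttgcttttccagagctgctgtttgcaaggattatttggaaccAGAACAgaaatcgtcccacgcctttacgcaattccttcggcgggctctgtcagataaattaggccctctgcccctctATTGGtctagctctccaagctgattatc
Spp1, chr5:104434861-104435160, plus strand, first of 2 annotated starts: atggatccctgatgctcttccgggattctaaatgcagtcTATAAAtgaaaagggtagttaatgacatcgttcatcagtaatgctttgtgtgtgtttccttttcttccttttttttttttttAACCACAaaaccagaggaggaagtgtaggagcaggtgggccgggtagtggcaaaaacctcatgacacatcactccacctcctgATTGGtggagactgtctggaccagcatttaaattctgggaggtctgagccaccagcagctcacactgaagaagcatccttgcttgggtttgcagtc
Enpp1, chr10:24712110-24712409, minus strand: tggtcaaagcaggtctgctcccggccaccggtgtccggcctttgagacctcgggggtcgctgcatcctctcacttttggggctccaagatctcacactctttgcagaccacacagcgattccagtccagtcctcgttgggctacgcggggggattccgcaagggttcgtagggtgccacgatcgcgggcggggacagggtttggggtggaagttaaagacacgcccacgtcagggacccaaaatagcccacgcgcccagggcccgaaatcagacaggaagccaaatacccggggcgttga
Ank, chr15:27466427-27466726, plus strand: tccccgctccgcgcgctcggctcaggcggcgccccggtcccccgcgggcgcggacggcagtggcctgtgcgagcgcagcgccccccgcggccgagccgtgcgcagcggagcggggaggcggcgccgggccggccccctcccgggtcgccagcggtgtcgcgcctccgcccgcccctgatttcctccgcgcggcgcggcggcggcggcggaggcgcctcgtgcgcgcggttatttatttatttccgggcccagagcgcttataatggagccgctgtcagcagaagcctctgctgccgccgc
The Ahsg window held AGAACA at position 196, counted from 1 at the 5′ end of the window, and a reverse CCAAT at position 273. In the Spp1 window TATAAA lay at position 40 (-211 bases from the annotated start), AACCACA at position 122 and a reverse CCAAT at position 205. A motif name here refers to the letters only, not to their place relative to the start. None of the 6 motifs was in the windows of Enpp1 or Ank, which says only that these letters are absent there. Of the windows not shown, that of Phospho1 held a CCAAT box, an AP-1 site and an E-box. The second window of Alpl held a TATA box (at -192 from the annotated start) and a glucocorticoid half-site, and the second of Slc20a1 a glucocorticoid half-site. The motifs were chosen after the sequences of Ahsg and Spp1 had been read, and the windows shown were chosen with the matches known, so the matches are examples and carry no test.

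At day 7, 4 of the 10 genes were higher than at day 0 (Ank, Mgp, Ahsg and Spp1), 3 were lower (Alpl, Slc20a1 and Enpp1) and Phospho1, Slc20a2 and Nt5e were not called. Over all 13527 genes tested, 27.5% were called higher and 27.9% lower in that comparison. Day 14 against day 0 gave 4 higher (Ank, Mgp, Ahsg and Spp1), 3 lower (Slc20a1, Slc20a2 and Enpp1) and 3 not called, beside 35.2% higher and 35.6% lower among all genes. By day 21, 6 were higher than at day 0, with Alpl and Phospho1 now among them, 3 were lower (Slc20a1, Slc20a2 and Enpp1) and Nt5e alone was not called, beside 29.8% higher and 29.5% lower among all genes. The median log2 fold change of the 10 genes was 0.073, 0.31 and 0.62 at days 7, 14 and 21, against medians of -0.010, 0.0027 and 0.00094 over all genes. These 3 comparisons share the day 0 libraries. Calls are at an adjusted p below 0.05 in a limma fit over all 8 libraries, and errors of levels are SD over n = 2 libraries.

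**Figure D1:**
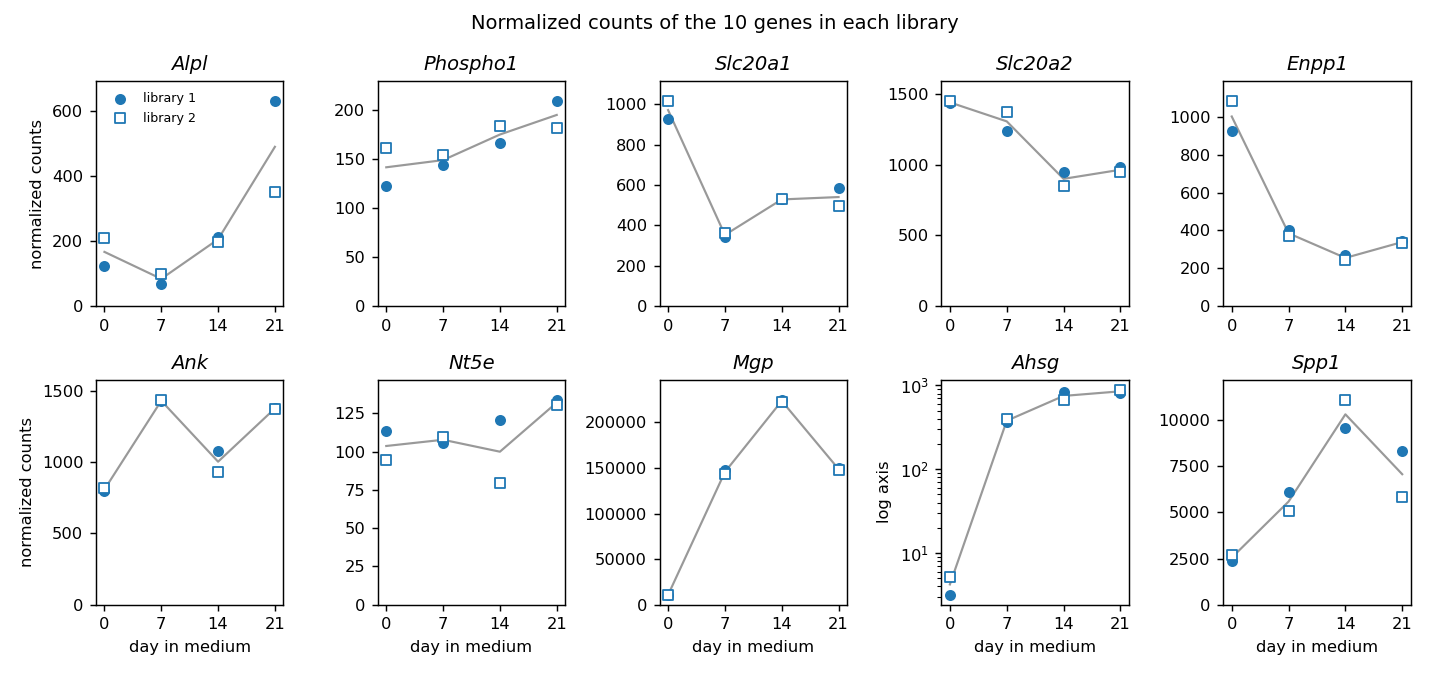
Normalized counts of each gene (vertical axis, log scale for Ahsg only) by day in the medium (horizontal axis), with filled circles for library 1, open squares for library 2 and a line through the means. Mgp, Ahsg and Spp1 lie above day 0 at every later time, Enpp1 and Slc20a1 lie below it, and the libraries of Alpl separate most at day 21 (630 and 351 normalized counts).

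Of the genes that release phosphate, Alpl was the one with the widest swing. Alkaline phosphatase RNA was at 125 and 209 normalized counts before the medium and 68.3 and 99.8 after 7 days. Alpl then had 214 and 198 normalized counts after 14 days and 630.2 and 351 after 21 days. The day 7 libraries were the lowest of the 8 and the day 21 libraries the highest, while those of day 14 overlapped those of day 0. At day 7 the level fell to 84.1 ± 22.3 normalized counts, against 167 ± 59.5 at day 0 (log2 fold change -0.96 ± 0.28 (SE), adjusted p = 0.0120). Relative to day 0 it was not called at day 14 (log2 fold change 0.34 ± 0.28 (SE), adjusted p = 0.291). At day 21 Alpl averaged 491 ± 197 normalized counts. That was 2.90-fold above day 0 (log2 fold change 1.53 ± 0.28 (SE), adjusted p = 5.11e-04) and 5.64-fold above day 7 (log2 fold change 2.50 ± 0.28 (SE), adjusted p = 2.38e-04). Each step after day 7 was also a rise, by 2.47-fold at day 14 over day 7 (log2 fold change 1.31 ± 0.28 (SE), adjusted p = 0.00236) and by 2.28-fold at day 21 over day 14 (log2 fold change 1.19 ± 0.28 (SE), adjusted p = 0.00783). The fall at day 7 missed the threshold without the second day 0 library (-0.59, adjusted p = 0.160), without the first day 7 library (-0.69, adjusted p = 0.118) and in DESeq2 (-0.98, adjusted p = 0.0604), with a range of adjusted p over the 20 settings of 0.00108 to 0.160, and the small difference at day 14 turned to -0.025 without the first day 0 library. The step from day 14 to day 21 rested on the first day 21 library and was 0.77, adjusted p = 0.0730 without it (over the 20 settings 0.00367 to 0.0730).

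Phospho1, a phosphatase that frees phosphate from phosphocholine and phosphoethanolamine inside matrix vesicles, moved little. It was measured at 122 and 161 normalized counts before the medium and 144 and 153 after 7 days. Phospho1 then had 166 and 183 normalized counts after 14 days and 208 and 181 after 21 days. Every library of days 14 and 21 stood above both libraries of day 0, and those of day 7 lay between the day 0 libraries. The day 21 level was 1.38-fold above day 0 (log2 fold change 0.47 ± 0.16 (SE), adjusted p = 0.0267), and the other 5 comparisons did not pass the test in that fit. At day 14 against day 0 (log2 fold change 0.32 ± 0.16 (SE), adjusted p = 0.104), Phospho1 passed with upper-quartile scaling (log2 0.39, adjusted p = 0.0499) and with the second library of day 0 left out (0.51, adjusted p = 0.0342), with a range of 0.0342 to 0.605 over the 20 settings. The Phospho1 call at day 21 disappeared without the first day 0 library (adjusted p = 0.255), without the first day 21 library (adjusted p = 0.147), with quantile normalization (adjusted p = 0.0934) and in DESeq2 (adjusted p = 0.0677), within a range of 0.0137 to 0.255 over the 20 settings. The span of Phospho1, introns included, overlaps that of Zfp652 on its own strand and that of Abi3 on the opposite one in the GENCODE annotation. Whether their exons overlap was not looked at, and the strand of the libraries is not stated. Abi3 stood at 115 and 115 normalized counts before the medium and 170.3 and 167 after 7 days. Abi3 then had 169 and 193 normalized counts after 14 days and 193 and 189.7 after 21 days. Zfp652 stood at 284 and 302 normalized counts before the medium and 219.5 and 191 after 7 days. Zfp652 then had 135 and 131 normalized counts after 14 days and 191 and 194 after 21 days. All 6 later libraries of Abi3 were above its day 0 libraries and all 6 of Zfp652 below theirs, and the part of either in the Phospho1 values was not tested.

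Nt5e, the enzyme CD73 that converts AMP to adenosine and phosphate, passed the test in no comparison of the fit over all libraries. Its values were 113 and 94.1 normalized counts before the medium and 106 and 109.7 after 7 days. Nt5e then had 120.3 and 79.5 normalized counts after 14 days and 134 and 130.3 after 21 days. Both day 21 libraries lay above the other 6, and the day 14 libraries spanned those of days 0 and 7. The largest difference from day 0 was at day 21 (log2 fold change 0.35 ± 0.20 (SE), adjusted p = 0.150). Against day 14 the day 21 difference was log2 fold change 0.43 ± 0.20 (SE), adjusted p = 0.116, and it became 0.72 and was called (adjusted p = 0.00916) once the first library of day 14 was left out, with a range of adjusted p over the 20 settings of 0.00916 to 0.661. In reads, Nt5e had 200 to 259 over the 2 libraries of a time, which limits how small a change could be detected.

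The phosphate transporters both fell, at different times. Slc20a1 (PiT-1), which carries phosphate into cells with sodium, was at 928 and 1013 normalized counts before the medium and 343 and 362 after 7 days. Slc20a1 then had 528 and 528 normalized counts after 14 days and 585 and 495 after 21 days. No later library reached the day 0 libraries, and the day 7 libraries were the lowest. The fall at day 7 was 2.75-fold (log2 fold change -1.46 ± 0.11 (SE), adjusted p = 3.91e-07). Relative to day 0 Slc20a1 was still 1.83-fold lower at day 14 (log2 fold change -0.88 ± 0.11 (SE), adjusted p = 1.94e-05) and 1.80-fold lower at day 21 (log2 fold change -0.85 ± 0.11 (SE), adjusted p = 3.61e-05). Part of the loss was regained, since day 14 was 1.5-fold above day 7 (log2 fold change 0.58 ± 0.11 (SE), adjusted p = 0.00116) and day 21 was 1.53-fold above day 7 (log2 fold change 0.61 ± 0.11 (SE), adjusted p = 0.00620), while day 21 was not called against day 14 (log2 0.027 ± 0.11). Its first annotated promoter window matched 4 of the 6 motifs. These were the TATA box (at -1 from the annotated start), the CCAAT box, the RUNX site and, at 2 places, the E-box.

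Slc20a2 (PiT-2), the related cotransporter whose loss in people and mice leads to calcified brain vessels, was at 1435 and 1447 normalized counts before the medium and 1239 and 1375 after 7 days. Slc20a2 then had 952 and 849 normalized counts after 14 days and 984 and 945 after 21 days. The day 7 libraries lay just below day 0 and those of days 14 and 21 well below both. At day 7 the difference was not called (log2 fold change -0.14 ± 0.10 (SE), adjusted p = 0.241). The level was 1.6-fold lower at day 14 than at day 0 (log2 fold change -0.68 ± 0.10 (SE), adjusted p = 5.61e-05) and 1.49-fold lower at day 21 (log2 fold change -0.58 ± 0.10 (SE), adjusted p = 2.93e-04). Day 14 was also below day 7 (log2 fold change -0.54 ± 0.10 (SE), adjusted p = 8.62e-04), as was day 21 (log2 fold change -0.44 ± 0.10 (SE), adjusted p = 0.0191), and day 21 did not differ from day 14 past the threshold (log2 0.10 ± 0.10). The 21-day values against day 7 lost their call for Slc20a2 without either day 7 library or either day 21 library (adjusted p = 0.0856, 0.236, 0.0590 and 0.0516), and for Slc20a1 without either day 7 library or the first day 21 library (adjusted p = 0.0906, 0.0552 and 0.0528). Over the 20 settings those adjusted p-values ranged over 0.00486 to 0.236 for Slc20a2 and 9.68e-04 to 0.0906 for Slc20a1. Slc20a2 overlaps Smim19 on the opposite strand, which was at 392 and 419.7 normalized counts before the medium and 424 and 483 after 7 days. Smim19 then had 449 and 531 normalized counts after 14 days and 458 and 414 after 21 days. The ratio of Slc20a1 to Slc20a2 within a library, in normalized counts, was 0.647 and 0.700 before the medium and 0.277 and 0.263 after 7 days. The ratio was then 0.555 and 0.623 after 14 days and 0.595 and 0.524 after 21 days.

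The pyrophosphate genes parted. Enpp1, the main enzyme that makes extracellular pyrophosphate, was at 923 and 1081 normalized counts before the medium and 401 and 369 after 7 days. Enpp1 then had 268 and 242 normalized counts after 14 days and 343 and 335 after 21 days. Every later library was below every day 0 library, and day 14 was the lowest time. Enpp1 fell 2.59-fold at day 7 (log2 fold change -1.37 ± 0.12 (SE), adjusted p = 1.08e-06), 3.91-fold at day 14 (log2 fold change -1.97 ± 0.12 (SE), adjusted p = 2.56e-08) and 2.94-fold at day 21 (log2 fold change -1.56 ± 0.12 (SE), adjusted p = 2.60e-07), each against day 0. Day 14 was 1.51-fold below day 7 (log2 fold change -0.59 ± 0.12 (SE), adjusted p = 0.00146) and day 21 was 1.33-fold above day 14 (log2 fold change 0.41 ± 0.12 (SE), adjusted p = 0.0197), while day 21 and day 7 did not differ past the threshold (log2 -0.18 ± 0.12). Once the trend with transcript length and GC content was removed, those smaller steps became -0.17 (adjusted p = 0.213) and 0.12 (adjusted p = 0.421). With fewer libraries in the fit the difference between days 21 and 14 kept most of its size but not its call, with 0.41, adjusted p = 0.0874 in a fit of those 2 times alone, 0.34, adjusted p = 0.0898 without the second day 14 library, and 0.39, adjusted p = 0.0597 and 0.43, adjusted p = 0.0646 without the first and the second day 21 library. Over the 20 settings the adjusted p of Enpp1 ranged over 9.38e-04 to 0.213 at day 14 against day 7 and over 0.0104 to 0.421 at day 21 against day 14.

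Ank, the membrane protein that raises extracellular pyrophosphate, went up. Its values were 801 and 816 normalized counts before the medium and 1426 and 1434 after 7 days. Ank then had 1077 and 929 normalized counts after 14 days and 1381 and 1371 after 21 days. All later libraries stood above day 0, with day 14 between day 0 and the other 2 times. Ank rose 1.77-fold at day 7 (log2 fold change 0.82 ± 0.10 (SE), adjusted p = 1.71e-05), 1.24-fold at day 14 (log2 fold change 0.31 ± 0.10 (SE), adjusted p = 0.0135) and 1.70-fold at day 21 (log2 fold change 0.77 ± 0.10 (SE), adjusted p = 2.54e-05) against day 0. Day 14 was lower than day 7 (log2 fold change -0.52 ± 0.10 (SE), adjusted p = 0.00102) and day 21 was higher than day 14 (log2 fold change 0.46 ± 0.10 (SE), adjusted p = 0.00464), and days 21 and 7 differed by a log2 of -0.055 ± 0.10, which was not called. The rise at day 14 missed the threshold without the first or the second day 0 library (adjusted p = 0.0753 and 0.0553) and without the first day 14 library (adjusted p = 0.0841), with a range of 8.83e-04 to 0.0841 over the 20 settings. Otulin overlaps Ank on the opposite strand and stayed between 420.0 and 532 normalized counts.

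**Figure D2:**
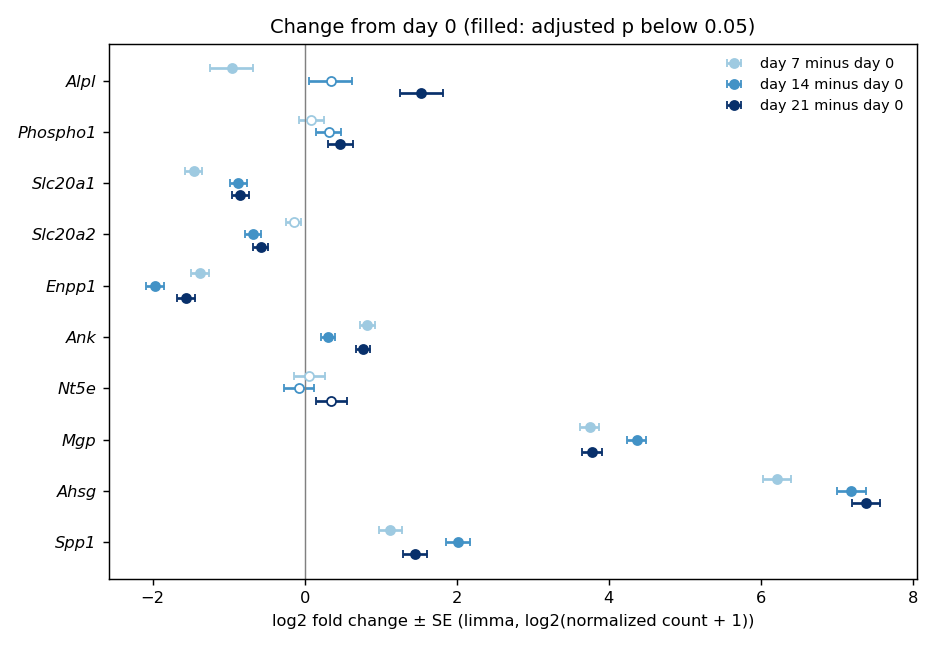
Log2 fold change from day 0 with its standard error (horizontal axis) for each gene (vertical axis) at days 7, 14 and 21, with filled points called at adjusted p below 0.05 and open points not called. Mgp and Ahsg lie far right of the other genes, Enpp1 and Slc20a1 lie left of 0 at all 3 times, and Alpl crosses from -0.96 at day 7 to 1.53 at day 21.

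Set within a library, the ratio of Ank to Enpp1 in normalized counts was 3.56 to 4.10 in the 6 later libraries, against 0.868 and 0.755 at day 0. Alpl over Enpp1, the enzyme that removes pyrophosphate over the enzyme that makes it, was 0.135 and 0.193 before the medium and 0.170 and 0.271 after 7 days. That ratio was then 0.799 and 0.816 after 14 days and 1.84 and 1.05 after 21 days. Both day 21 values exceeded those of day 14, and all 4 of them exceeded those of days 0 and 7. These ratios combine the changes given above and add no separate test, and a ratio of RNAs says nothing of enzyme activity.

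**Figure D3:**
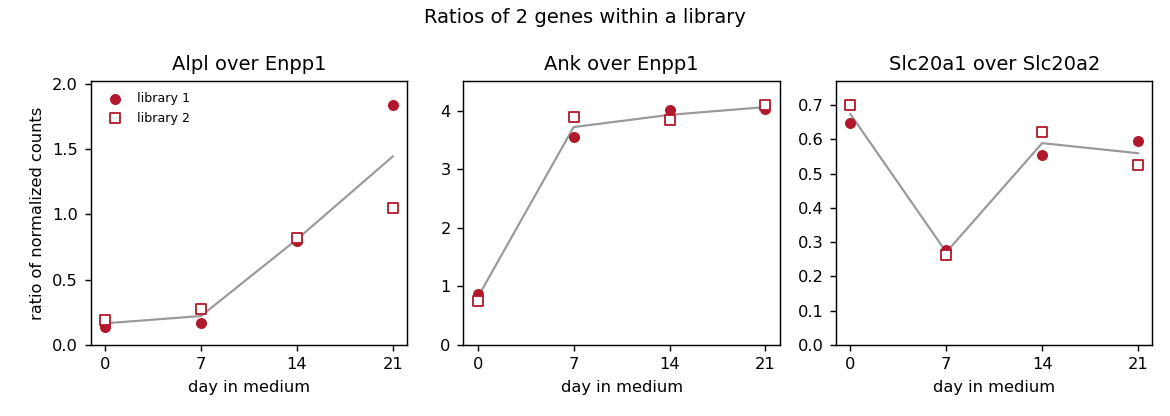
Ratios of normalized counts of 2 genes within each library (vertical axes, starting at 0) by day in the medium, with filled circles for library 1, open squares for library 2 and a line through the means. Alpl over Enpp1 climbs to 1.84 and 1.05 at day 21, Ank over Enpp1 steps up by day 7 and holds, and Slc20a1 over Slc20a2 dips at day 7.

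Mgp, a vitamin K dependent protein of cartilage, vessel wall and other soft tissue, had the most reads of the 10 genes in every library. Its level was 10601 and 11078 normalized counts before the medium and 147679 and 143360.0 after 7 days. Mgp then had 224306 and 222564 normalized counts after 14 days and 149665 and 147872 after 21 days. The later libraries formed a group far above day 0, with day 14 the highest time and days 7 and 21 nearly level. Mgp rose 13.4-fold at day 7 (log2 fold change 3.75 ± 0.13 (SE), adjusted p = 3.96e-10), 20.6-fold at day 14 (log2 fold change 4.37 ± 0.13 (SE), adjusted p = 7.47e-11) and 13.7-fold at day 21 (log2 fold change 3.78 ± 0.13 (SE), adjusted p = 2.13e-10) against day 0. As a share of all reads assigned to genes, Mgp took 0.0608% and 0.0632% before the medium and 0.836% and 0.795% after 7 days. The share was 1.28% and 1.28% after 14 days and 0.800% and 0.779% after 21 days. Counting error on these shares was small, with a 95% Wilson interval of 0.0598 to 0.0619% for the first day 0 library. Day 14 was 1.54-fold above day 7 (log2 fold change 0.62 ± 0.13 (SE), adjusted p = 0.00170) and day 21 was 1.5-fold below day 14 (log2 fold change -0.59 ± 0.13 (SE), adjusted p = 0.00502). The rise from day 7 to day 14 turned to a log2 of -0.19, adjusted p = 0.285 once the trend with transcript length and GC content was removed, and was 0.14, adjusted p = 0.377 under quantile normalization. The fall from day 14 to day 21 became -0.083, adjusted p = 0.688 with that trend removed and was not called in a fit of those 2 times alone (adjusted p = 0.0810), whereas the rise from day 0 was called in all 20 settings at days 7, 14 and 21. Over those settings the adjusted p ranged over 1.55e-10 to 0.377 for day 14 against day 7 and over 4.56e-09 to 0.688 for day 21 against day 14.

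The gene annotated next to Mgp on the chromosome, Art4, an ADP-ribosyltransferase family member that carries a blood group antigen, was looked up after its values were seen. It stood at 211 and 246 normalized counts before the medium and 1420.1 and 1333 after 7 days. Art4 then had 2066 and 1722 normalized counts after 14 days and 1524 and 1873 after 21 days. All 6 later libraries were above both day 0 libraries, as for Mgp. The next gene on the other side, Erp27, had at most 7.01 normalized counts in any library.

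Ahsg, which encodes the serum protein fetuin-A made chiefly by liver, was near the limit of detection at day 0. Ahsg passed the filter on low values only through the later days. Its values were 3.18 and 5.23 normalized counts before the medium and 364 and 393 after 7 days. Ahsg then had 825 and 674 normalized counts after 14 days and 817 and 884 after 21 days. The day 0 libraries held 8 reads together, against 841, 1482 and 1674 reads over both libraries at days 7, 14 and 21. Every later library was far above day 0, and those of days 14 and 21 overlapped each other above day 7. As a ratio of reads scaled for depth, day 7 over day 0 was 95.7 (95% counting interval 48.4 to 222), day 14 over day 0 was 192 (97.0 to 445) and day 21 over day 0 was 215 (109 to 499). Such intervals cover counting error only. In the fit, where adding 1 to each value understates the change of a gene this low, the log2 fold changes were 6.22 ± 0.19 (adjusted p = 1.95e-10), 7.19 ± 0.19 (adjusted p = 4.12e-11) and 7.38 ± 0.19 (adjusted p = 4.36e-11) at days 7, 14 and 21 against day 0. By size these ranked 7, 2 and 3 from the top among the rises of all genes tested. Day 14 was also 1.97-fold above day 7 (log2 fold change 0.98 ± 0.19 (SE), adjusted p = 0.00102) and day 21 was 2.24-fold above day 7 (log2 fold change 1.17 ± 0.19 (SE), adjusted p = 0.00248), while day 21 against day 14 was not called (log2 0.19 ± 0.19). Alb, the liver's most abundant secreted protein, was listed at 0 in every library.

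Fetub, which encodes the related protein fetuin-B and is the next annotated gene to Ahsg, was higher too. Its values were 43.8 and 37.9 normalized counts before the medium and 269 and 271 after 7 days. Fetub then had 308 and 328 normalized counts after 14 days and 256 and 263 after 21 days. No later library was below 256 normalized counts and no day 0 library above 43.8, and the log2 fold changes were 2.70 ± 0.14 (adjusted p = 1.02e-08), 2.93 ± 0.14 (adjusted p = 2.78e-09) and 2.64 ± 0.14 (adjusted p = 8.54e-09). On the far side of Fetub, Hrg, another member of the cystatin superfamily made in liver, was listed at 0 throughout. Dnajb11, the gene on the other side of Ahsg, ranged from 2579.7 to 3532 normalized counts over the 8 libraries with no such step.

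Spp1, which encodes osteopontin, a phosphorylated matrix and cytokine-like protein made by bone cells, macrophages and injured tissue, was at 2388 and 2716 normalized counts before the medium and 6119.5 and 5058 after 7 days. Spp1 then had 9546 and 11082 normalized counts after 14 days and 8301 and 5839.9 after 21 days. All later libraries were above both day 0 libraries, day 14 was the highest time, and the day 21 libraries lay far apart, 1 of them between the day 7 libraries. Spp1 rose 2.18-fold at day 7 (log2 fold change 1.13 ± 0.16 (SE), adjusted p = 6.00e-05), 4.04-fold at day 14 (log2 fold change 2.01 ± 0.16 (SE), adjusted p = 2.16e-07) and 2.73-fold at day 21 (log2 fold change 1.45 ± 0.16 (SE), adjusted p = 5.60e-06) against day 0. Day 14 was 1.85-fold above day 7 (log2 fold change 0.89 ± 0.16 (SE), adjusted p = 6.24e-04) and day 21 was 1.48-fold below day 14 (log2 fold change -0.56 ± 0.16 (SE), adjusted p = 0.0159). That last step lost its call without the second day 14 library (-0.46, adjusted p = 0.0853), without the second day 21 library (-0.31, adjusted p = 0.157) and with the length and GC trend removed (-0.22, adjusted p = 0.168). Day 21 against day 7 was not called (log2 0.32 ± 0.16, adjusted p = 0.219) but passed once the second day 21 library was left out (log2 0.58, adjusted p = 0.0332). Over the 20 settings the adjusted p ranged over 0.00293 to 0.168 for day 21 against day 14 and over 0.0332 to 0.864 for day 21 against day 7.

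Markers of macrophages, a further source of osteopontin, were also higher at the later times. Of 10 listed, 9 were measured, none of them listed at 0. Among them Mrc1, Aif1 and Ptprc passed the filter on low values only through the later days. Called higher than at day 0 were 8, 9 and 8 of the 9 at days 7, 14 and 21, beside 27.5%, 35.2% and 29.8% of all genes. Their summed level was 1023 to 1099.5 normalized counts before the medium, 8774 to 10922 after 7 days, 18979.9 to 35313 after 14 days and 18069 to 18860.0 after 21 days. Lyz2, lysozyme, made up most of that sum and stood at 647 and 715 normalized counts before the medium and 9187 and 7306 after 7 days. Lyz2 then had 16975 and 31689 normalized counts after 14 days and 16693 and 15255 after 21 days. Csf1r, the receptor that macrophages need to survive, stood at 172 and 169 normalized counts before the medium and 361 and 323 after 7 days. Csf1r then had 272 and 427 normalized counts after 14 days and 301 and 329.7 after 21 days. Between days 21 and 14, where Spp1 was lower at day 21, 1 of the 9 markers was called lower and none higher. Among all genes, 14.3% were called lower and 20.2% higher in that comparison. Over those days Cd68, a lysosomal protein of macrophages, had 320.4 and 575 normalized counts at day 21, against 284 and 496 at day 14. The library with the highest macrophage sum, the second of day 14, also had the highest Spp1. Lyz2, Csf1r, Cd14, Aif1, Itgam and C1qa were each highest in that library. Cd68, Mrc1 and Ptprc were instead highest in the second library of day 21, where Spp1 was the lower of its day 21 pair (5839.9 normalized counts). The part of macrophages in the Spp1 values was not tested. In bulk RNA, more cells of a type and more RNA per cell cannot be told apart. On the bone side the neighbours of Spp1, Ibsp and Mepe, were listed at 0 in every library, and Dmp1, a matrix protein of osteocytes, had 2 reads over both day 0 libraries and 23, 21 and 17 over those of days 7, 14 and 21.

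Markers of other cell types shifted over the same days. The 6 adipocyte markers summed to 96.3 to 141 normalized counts before the medium and 2115 to 2120.0 after 7 days. The sum was 5797 to 7077 after 14 days and 2241 to 2439 after 21 days, most of it Fabp4, a fatty acid carrier. Of this list only Adipoq, Fabp4 and Pparg were tested, and Adipoq passed the filter only through the later days. Called higher than at day 0 were 2, 3 and 3 at days 7, 14 and 21, beside 27.5%, 35.2% and 29.8% of all genes. The 5 cardiomyocyte markers summed to 1137 to 1212 normalized counts before the medium, 11090.4 to 11751 after 7 days, 22451 to 28806 after 14 days and 5867 to 10594 after 21 days, nearly all of it Tnnt2 (cardiac troponin T), while Myh6, the heart muscle myosin, was listed at 0 throughout. Of this list only Tnnt2, Ryr2 and Tnni3 were tested, and Ryr2 and Tnni3 passed the filter only through the later days. Called higher at days 7, 14 and 21 were 2, 3 and 3, beside the same shares of all genes. Both sums, like Mgp and Spp1, were highest at day 14. In the adipocyte list that peak rested on Fabp4, which averaged 6319 normalized counts at day 14 and 2193 at day 21. Adipoq, Plin1, Cidec and Pparg instead had higher means at day 21 than at day 14. The libraries of those days overlapped for Adipoq and Pparg, and Lep had 3 reads over all libraries. Tnnt2, Ryr2 and Tnni3 each averaged highest at day 14.

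Among 7 chondrocyte markers, 4 were called lower and 1 higher at each later time. Col9a1 and Col10a1 were not tested, and Acan and Matn3 passed the filter only through day 0. Over all genes, 27.9%, 35.6% and 29.5% were called lower and 27.5%, 35.2% and 29.8% higher at days 7, 14 and 21. Col2a1, the collagen of cartilage, stood at 1916 and 1922 normalized counts before the medium and 38.3 and 38.3 after 7 days. Col2a1 then had 22.8 and 38.6 normalized counts after 14 days and 8.54 and 29.2 after 21 days. The 8 endothelial markers summed to 656 to 685 normalized counts before the medium and 586 to 591 after 7 days. That sum was 316 to 413 after 14 days and 300.1 to 446 after 21 days. Called lower were 1, 4 and 5 at days 7, 14 and 21 and none higher, beside 27.9%, 35.6% and 29.5% of all genes called lower. Kdr was not tested, and Cldn5 passed the filter only through day 0. Tek made up most of the later sums and averaged 249, 340, 221 and 292 normalized counts at days 0, 7, 14 and 21. At those days Cdh5 averaged 180, 73.8, 12.5 and 5.49, Pecam1 91.4, 58.1, 32.7 and 23.1, and Vwf 15.2, 23.4, 23.9 and 16.5. The 7 smooth muscle and pericyte markers summed to 844 to 879.9 normalized counts before the medium and 2641 to 2771 after 7 days. They summed to 802 to 1084 after 14 days and 1196 to 2786 after 21 days, with 3, 2 and 4 called higher and 0, 1 and 2 lower. The shares of all genes beside these counts are those given for the chondrocyte markers. Abcc9 was not tested, and Kcnj8 passed the filter only through the later days. Notch3 made up most of each sum and averaged 740, 2567, 736 and 1814 normalized counts at days 0, 7, 14 and 21. At those days Myh11 averaged 35.7, 65.9, 114 and 92.7, and Cspg4 42.8, 32.5, 9.03 and 11.8. No more than 2.39 normalized counts of 5 lymphocyte markers were in any library. The part of these cell types in the values of the 10 genes was not tested.

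Per kilobase of exon, which allows levels of different genes to be set side by side, Mgp led at day 21 with 241116 ± 2054 normalized counts per kb, followed by Spp1 (4290.3 ± 1056), Ahsg (499 ± 27.8), Ank (393 ± 1.93), Slc20a2 (270.5 ± 7.59) and Alpl (195 ± 78.2). Below them at day 21 came Slc20a1 (156 ± 18.5), Phospho1 (102 ± 10.1), Enpp1 (49.96 ± 0.861) and Nt5e (33.0 ± 0.561), with Alpl and Slc20a1 overlapping. The day 0 order per kb was Mgp (17568 ± 546), Spp1 (1548 ± 141), Slc20a2 (404 ± 2.50), Slc20a1 (281 ± 17.4), Ank (231 ± 3.01) and Enpp1 (148 ± 16.5). Phospho1 (74.0 ± 14.4) and Alpl (66.3 ± 23.6) overlapped each other at day 0, ahead of Nt5e (25.9 ± 3.35), and Ahsg was last (2.47 ± 0.849). At day 21 Ahsg thus stood above Enpp1, Ank and both phosphate transporters, and Enpp1 below Alpl and Phospho1. In the table as a whole, Mgp ranked 1 or 2 per kb in the 6 later libraries, against 36 and 34 in those of day 0. Exon lengths come from a later annotation than the one behind the counts, so these levels are approximate.

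Between the later times, at day 14 against day 7, 5 were higher (Alpl, Slc20a1, Mgp, Ahsg and Spp1), 3 lower (Slc20a2, Enpp1 and Ank) and 2 not called, beside 25% higher and 27% lower among all genes. At day 21 against day 14, 3 were higher (Alpl, Enpp1 and Ank) and 2 lower (Mgp and Spp1), beside 20.2% higher and 14.3% lower among all genes. That count of 5 fell to 3 in a fit of those 2 times alone, to 2 with the length and GC trend removed, and to 3 without the second day 14 library or without either day 21 library. At day 21 against day 7, 3 were higher (Alpl, Slc20a1 and Ahsg) and 1 lower (Slc20a2), beside 5.46% higher and 3.28% lower among all genes. That count of 4 fell to 2 without either day 7 library or without the first day 21 library. The median log2 fold changes of the 10 genes in these comparisons were 0.41, 0.17 and 0.31, against -0.00053, 0.021 and 0.012 over all genes.

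Other genes of the pathway were counted in 6 lists. Of 21 genes for extracellular ATP, pyrophosphate and adenosine, 18 were tested. Of those tested, 6, 5 and 6 were higher and 6, 8 and 6 lower at days 7, 14 and 21 than at day 0. These are 33.3%, 27.8% and 33.3% higher, beside 27.5%, 35.2% and 29.8% of all genes, and 33.3%, 44.4% and 33.3% lower, beside 27.9%, 35.6% and 29.5%. In log2 fold change the list had medians of -0.039, -0.12 and -0.049. Relatives of Enpp1 went different ways. Enpp2 (autotaxin, which makes lysophosphatidic acid) was at 3.18 and 2.61 normalized counts before the medium and 52.8 and 44.6 after 7 days. Enpp2 then had 62.0 and 67.8 normalized counts after 14 days and 63.0 and 94.3 after 21 days. It was higher at each later time (log2 fold changes 3.67 ± 0.28, 4.08 ± 0.28 and 4.33 ± 0.28, adjusted p = 3.04e-07, 6.60e-08 and 4.93e-08). Enpp2 had 6 reads over both day 0 libraries and passed the filter on low values only through the later days. Enpp3, a nucleotide pyrophosphatase and the next annotated gene to Enpp1, was at 101 and 118 normalized counts before the medium and 30.1 and 39.2 after 7 days. Enpp3 then had 23.7 and 18.7 normalized counts after 14 days and 41.7 and 35.0 after 21 days. This neighbour was lower at each later time (log2 -1.64 ± 0.24, -2.32 ± 0.24 and -1.49 ± 0.24, adjusted p = 1.12e-04, 3.37e-06 and 2.07e-04). Entpd2, an ecto-ATPase that competes with Enpp1 for ATP, was higher (log2 1.77 ± 0.14, 2.06 ± 0.14 and 2.30 ± 0.14, adjusted p = 4.13e-07, 5.93e-08 and 2.76e-08), and so was P2rx4, an ATP-gated channel (log2 1.12 ± 0.09, 1.56 ± 0.09 and 1.38 ± 0.09, adjusted p = 5.79e-07, 1.76e-08 and 6.33e-08). Of the adenosine receptors, Adora2a was lower at each later time (log2 -1.25 ± 0.34, -0.89 ± 0.34 and -1.03 ± 0.34, adjusted p = 0.00835, 0.0349 and 0.0212), and was picked out after its values were seen. Without the second day 0 library those values were -0.96, -0.60 and -0.74 and none was called (adjusted p = 0.0958, 0.246 and 0.180), and without the first day 7 library the day 7 value was -0.79, adjusted p = 0.111. Leaving out either day 14 library or the first day 21 library also ended the call of that day, and over the 19 settings that tested it the adjusted p ranged over 0.00226 to 0.111, 0.0150 to 0.246 and 0.00865 to 0.180. Adora2b and Adora3 were called in none of the 3 comparisons, with 199 to 305 and 8.76 to 24.5 normalized counts over the 8 libraries.

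Of 12 genes for phosphate transport, export and hormonal control, 5 were tested. Of those tested, 3, 1 and 2 were higher and 1, 3 and 1 lower at days 7, 14 and 21 than at day 0. These are 60%, 20% and 40% higher, beside 27.5%, 35.2% and 29.8% of all genes, and 20%, 60% and 20% lower, beside 27.9%, 35.6% and 29.5%. In log2 fold change the list had medians of 0.31, -0.36 and 0.016. The kidney and gut cotransporters Slc34a1, Slc34a2 and Slc34a3 were listed at 0 in every library. Xpr1, the phosphate exporter, was at 859.9 and 959.7 normalized counts before the medium and 797 and 803 after 7 days. Xpr1 then had 406 and 331 normalized counts after 14 days and 649 and 626 after 21 days. It was not called at day 7 and was lower at days 14 and 21 (log2 -1.31 ± 0.12 and -0.51 ± 0.12, adjusted p = 7.98e-07 and 0.00242). Pth1r, the parathyroid hormone receptor, was at 47.8 and 43.1 normalized counts before the medium and 78.3 and 93.6 after 7 days. Pth1r then had 211 and 199.9 normalized counts after 14 days and 233 and 269 after 21 days. Its level was higher at each later time (log2 0.90 ± 0.16, 2.15 ± 0.16 and 2.44 ± 0.16, adjusted p = 5.46e-04, 1.95e-07 and 8.36e-08).

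Mgp works only after its glutamates are carboxylated with vitamin K. Of 11 genes of that step and its protein substrates, 10 were tested. Of those tested, 3, 3 and 4 were higher and 5, 5 and 4 lower at days 7, 14 and 21 than at day 0. These are 30%, 30% and 40% higher, beside 27.5%, 35.2% and 29.8% of all genes, and 50%, 50% and 40% lower, beside 27.9%, 35.6% and 29.5%. In log2 fold change the list had medians of -0.15, -0.37 and -0.21. Ggcx, the carboxylase, was at 1488 and 1646 normalized counts before the medium and 862 and 892 after 7 days. Ggcx then had 733 and 547 normalized counts after 14 days and 982 and 964 after 21 days. Its level was below day 0 at every later time (log2 -0.84 ± 0.13, -1.30 ± 0.13 and -0.69 ± 0.13, adjusted p = 1.34e-04, 1.70e-06 and 5.36e-04), opposite in direction to Mgp. Vkorc1, also of this list, was lower at day 7 (log2 -0.24 ± 0.10, adjusted p = 0.0498). At days 14 and 21 Vkorc1 was higher (log2 0.39 ± 0.10 and 0.44 ± 0.10, adjusted p = 0.00274 and 0.00172). Gas6, a carboxylated ligand of the TAM receptors, was at 8322 and 9260.5 normalized counts before the medium and 94793 and 101645 after 7 days. Gas6 then had 156757 and 136859 normalized counts after 14 days and 166286 and 190024 after 21 days. It rose 11.2-fold, 16.7-fold and 20.2-fold at days 7, 14 and 21 against day 0 (adjusted p = 1.19e-09, 2.11e-10 and 1.63e-10). Prrg4, a transmembrane Gla protein, fell (log2 -1.74 ± 0.36, -3.83 ± 0.36 and -2.40 ± 0.36, adjusted p = 0.00123, 1.11e-06 and 9.24e-05). Ucma, also of this list, rose (log2 1.54 ± 0.44, 2.53 ± 0.44 and 2.27 ± 0.44, adjusted p = 0.0101, 2.28e-04 and 7.15e-04). Ucma had 5 reads over both day 0 libraries, and its day 7 log2 value ranged from 0.79 to 2.00 over the 19 settings that tested it.

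**Figure D4:**
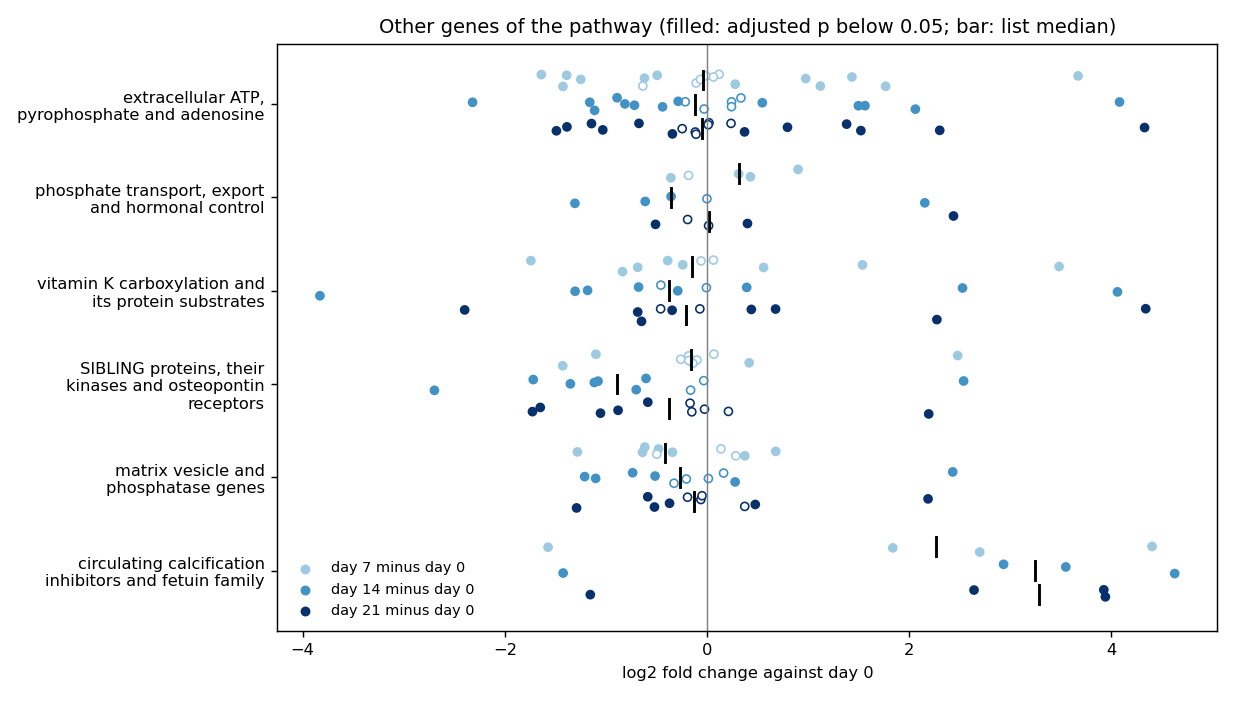
Log2 fold change from day 0 (horizontal axis) of the tested genes of 6 lists of other pathway genes (vertical axis) at days 7, 14 and 21, with filled points called at adjusted p below 0.05, open points not called and black bars at list medians. Most lists spread to both sides of 0, and Fgl2 lies farthest right in the fetuin list, at 4.40, 4.63 and 3.94.

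Among 13 SIBLING proteins (the osteopontin family), their kinases and osteopontin receptors, 10 were tested. Of those tested, 2, 1 and 1 were higher and 2, 7 and 5 lower at days 7, 14 and 21 than at day 0. These are 20%, 10% and 10% higher, beside 27.5%, 35.2% and 29.8% of all genes, and 20%, 70% and 50% lower, beside 27.9%, 35.6% and 29.5%. In log2 fold change the list had medians of -0.16, -0.89 and -0.38. The largest called changes included 3 receptors or receptor chains, all lower where called. The other gene named for its size of change, Dmp1, was higher at each later time (log2 2.48 ± 0.48, 2.54 ± 0.48 and 2.19 ± 0.48, adjusted p = 8.41e-04, 4.46e-04 and 0.00175). Dmp1 had 2 reads over both day 0 libraries. Itgav, the integrin alpha-v chain, was at 4859.9 and 4857 normalized counts before the medium and 2346 and 2191 after 7 days. Itgav then had 870.1 and 644 normalized counts after 14 days and 1583 and 1513 after 21 days. It was lower at each later time, with log2 fold changes of -1.10 ± 0.12, -2.70 ± 0.12 and -1.65 ± 0.12 (adjusted p = 1.10e-05, 2.24e-09 and 2.23e-07). Cd44, the hyaluronan receptor that also binds osteopontin, was lower as well (log2 -1.43 ± 0.12, -1.72 ± 0.12 and -1.05 ± 0.12, adjusted p = 1.06e-06, 1.14e-07 and 1.22e-05). Itgb3, a partner of the alpha-v chain, was not called at day 7 and was lower at days 14 and 21 (log2 -1.35 ± 0.14 and -1.73 ± 0.14, adjusted p = 2.55e-06 and 3.88e-07). Of the genes outside those largest changes, 3 were picked out after their values were seen. Itgb1, the integrin beta-1 chain, was higher at day 7 (log2 0.42 ± 0.13, adjusted p = 0.0139) and not called at days 14 and 21, and the day 7 call was lost without the second day 0 library or either day 7 library (adjusted p = 0.102, 0.110 and 0.0553, within 1.10e-04 to 0.110 over the 20 settings). Fam20c, the kinase that phosphorylates osteopontin, was lower at days 14 and 21 (log2 -1.08 ± 0.13 and -0.59 ± 0.13, adjusted p = 8.37e-06 and 0.00155), as was its partner Fam20a (log2 -1.11 ± 0.10 and -0.88 ± 0.10, adjusted p = 1.10e-06 and 1.27e-05). Dspp, a dentine protein of the same family, was listed at 0, and Fam20b, a xylose kinase, stayed between 1357 and 1607 normalized counts.

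Of 13 matrix vesicle and phosphatase genes, 10 were tested. Of those tested, 2, 2 and 2 were higher and 5, 4 and 4 lower at days 7, 14 and 21 than at day 0. These are 20%, 20% and 20% higher, beside 27.5%, 35.2% and 29.8% of all genes, and 50%, 40% and 40% lower, beside 27.9%, 35.6% and 29.5%. In log2 fold change the list had medians of -0.41, -0.27 and -0.13. The intestinal and germ-cell type alkaline phosphatases Alpi, Alppl2 and Akp3 were listed at 0 in every library. Anxa2, an annexin found on matrix vesicles, was at 33559 and 34736 normalized counts before the medium and 13802 and 14277 after 7 days. Anxa2 then had 13779 and 15797 normalized counts after 14 days and 14746 and 13212 after 21 days. It was lower at each later time (log2 -1.28 ± 0.11, -1.21 ± 0.11 and -1.29 ± 0.11, adjusted p = 9.56e-07, 8.63e-07 and 6.66e-07). Acp5, the tartrate-resistant acid phosphatase of osteoclasts and macrophages, was at 28.7 and 35.3 normalized counts before the medium and 26.4 and 18.7 after 7 days. Acp5 then had 159 and 194 normalized counts after 14 days and 91.9 and 239 after 21 days. It was not called at day 7 and was higher at days 14 and 21 (log2 2.43 ± 0.35 and 2.19 ± 0.35, adjusted p = 5.61e-05 and 1.88e-04), beside the macrophage sums given above, whose part was not tested.

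Of 9 genes listed with the circulating calcification inhibitors and fetuins, 4 were tested. Of those tested, 3, 3 and 3 were higher and 1, 1 and 1 lower at days 7, 14 and 21 than at day 0. These are 75%, 75% and 75% higher, beside 27.5%, 35.2% and 29.8% of all genes, and 25%, 25% and 25% lower, beside 27.9%, 35.6% and 29.5%. In log2 fold change the list had medians of 2.27, 3.24 and 3.28. Besides Fetub, these were Fgl2, Kng1 and Tnfrsf11b. Fgl2, a fibrinogen-like protein of coagulation and immune regulation, was at 66.9 and 82.4 normalized counts before the medium and 1633 and 1548 after 7 days. Fgl2 then had 2168 and 1591 normalized counts after 14 days and 1157 and 1152 after 21 days. It was higher at each later time, with log2 fold changes of 4.40 ± 0.14, 4.63 ± 0.14 and 3.94 ± 0.14 (adjusted p = 3.13e-10, 1.32e-10 and 3.91e-10). Tnfrsf11b, which encodes osteoprotegerin, the decoy receptor that restrains osteoclasts, was at 807 and 892 normalized counts before the medium and 301 and 269 after 7 days. Tnfrsf11b then had 398 and 250.1 normalized counts after 14 days and 383 and 377 after 21 days. It was lower at each later time (log2 -1.57 ± 0.18, -1.42 ± 0.18 and -1.15 ± 0.18, adjusted p = 1.03e-05, 1.37e-05 and 1.14e-04). Kng1, kininogen, had 1 read over both day 0 libraries and 10, 34 and 44 reads over those of days 7, 14 and 21, a day 21 ratio of 45.3 with a 95% counting interval of 7.71 to 1828. Kng1 passed the filter on low values only through the later days and is 1 of the 2 middle values that set the median of the list. Its call at day 7 (log2 1.84 ± 0.54, adjusted p = 0.0113) was kept in 14 of the 19 settings that tested it, over which the adjusted p ranged over 0.00556 to 0.223.

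The genes whose log2 levels most resembled each of the 10 over the 8 libraries were found among 10765 genes by Pearson correlation. These values describe 4 times that share libraries, carry no test and rest mostly on the step from day 0. For Mgp they were Fam124a (r = 0.999), Aldh1a7 (r = 0.998) and Pla1a (r = 0.998), and for Ahsg Serpina3m (r = 0.999), Pdlim3 (r = 0.999) and Gas6 (r = 0.999). Pdlim3, near Ahsg in pattern, encodes a muscle Z-disc protein, and Gas6 is the Gla protein described above. Nearest to Spp1 were Arl6ip5 (r = 0.995), Tmem179b (r = 0.994) and Tmem205 (r = 0.993), and nearest to Enpp1 were Nnt (r = 0.998), Atic (r = 0.996) and Ncbp1 (r = 0.996). For Ank they were Boc (r = 0.996), Esyt2 (r = 0.995) and Sox5 (r = 0.994), of which Sox5 is a regulator of cartilage. Nearest to Slc20a1 were Impdh2 (r = 0.995), Sec22b (r = 0.994) and C1qbp (r = 0.991), and nearest to Slc20a2 were Nkd2 (r = 0.985), Psme4 (r = 0.983) and Zfp362 (r = 0.982). The resemblance was looser for Alpl, with Cd320 (r = 0.954), Ddost (r = 0.942) and Pdgfrl (r = 0.928), and for Phospho1, with Lins (r = 0.952), Isca1 (r = 0.942) and Chic2 (r = 0.921).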

How the data were processed

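The authors deposited 1 signal value for each of 24015 genes in each of 8 libraries, which is the gene's reads scaled by a size factor. Per the submitters' processing notes, the tools were TopHat2 2.0.11, HTSeq 0.6.1 and DESeq with the mouse build mm9, their roles not stated. Medium components, gene annotation and library strand: not given in the sources used here. The labels' protocols name total RNA from the RNeasy Plus Mini Kit. Dividing each library by the value of 1 read gave whole reads for 100% of values (within 0.01 reads), 13399313 to 21883498 per library.

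Genes that reached 10 normalized counts in 2 or more of the 8 libraries, 13527 of them, were tested with limma 3.58.1 (trend, R 4.3.3) on log2(value + 1), all libraries in 1 fit, with Benjamini-Hochberg adjustment over all tested genes and calls below 0.05. All 10 genes passed that filter, Ahsg only through the later days. Of the list genes, Enpp2, Ucma, Dmp1 and Kng1 also passed only through those days, and the counts of genes called higher include them. Cell type markers that passed only through day 0 or only through the later days are named with their counts. Alternatives were edgeR 4.0.16 and DESeq2 1.42.0 on whole reads, other pseudocounts (0.5 and 5), filters and scalings, removal of the length and GC trend, and leaving out each library. A fit without 1 library of a time assumes that the remaining one varies like the others. Exon lengths and overlaps came from GENCODE M21 (98.4% of genes matched). Overlaps are of whole gene spans, introns included. Fits were tested on simulated data.

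All 10 genes were described in every comparison. Of each list, up to 4 called genes with the largest change, up to 2 genes not called and those at 0 could be named, with the 3 genes nearest in pattern to each of the 10. The nearest genes of Nt5e are not reported here. Neighbouring and overlapping genes and 4 list genes (Adora2a, Itgb1, Fam20a and Fam20c) were added after their values were seen. Vkorc1 was also added after its values were seen, and its values under the alternative settings are not given. The 10 genes and the lists were chosen with earlier results of these data known.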

Additional observations from a re-analysis of the deposited data

How the results depend on the processing

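Of 1200 values of the 10 genes over 6 comparisons and 20 alternative settings, 1149 kept their direction and their side of the threshold, 30 lost a call, 4 gained one and 17 changed sign. The counts of genes called at days 7, 14 and 21 against day 0 and at day 14 against day 7 stayed within 1.5 times the main count in every setting. The count of 5 at day 21 against day 14 was 3 with the libraries of the 2 times only and 2 with the length and GC trend removed, and ranged from 3 to 6 when 1 library was left out. The count of 4 at day 21 against day 7 ranged from 2 to 4 when 1 library was left out. Sign changes among called values were limited to Mgp at day 14 against day 7, given above. Among values not called, quantile normalization gave Phospho1 -0.0072 and Nt5e -0.016 at day 7 against day 0, Slc20a1 -0.041 at day 21 against day 14 and Mgp -0.41 at day 21 against day 7. Removal of the length and GC trend gave Mgp -0.19 at day 14 against day 7 and -0.27 at day 21 against day 7, Nt5e 0.066 and 0.023 at day 14 against days 0 and 7, and Slc20a1 -0.0074 at day 21 against day 14, which was -0.043 with upper-quartile scaling. Leaving out 1 library turned 7 uncalled values, in ranges of -0.11 to 0.28 for Phospho1 and -0.070 to 0.19 for Nt5e at day 7 against day 0, -0.025 to 0.71 for Alpl and -0.37 to 0.22 for Nt5e at day 14 against day 0, -0.43 to 0.16 for Nt5e at day 14 against day 7, and -0.094 to 0.15 for Slc20a1 at day 21 against day 14. The cause of these changes was not tested. Over 34 other pathway genes named and tested (Vkorc1 not among them), in all 6 comparisons, 3780 of 4040 values were the same. Of the rest, 101 lost a call, 73 gained one and 86 changed sign, all 86 of them not called. After first totals had been seen, single values were followed only for the genes with the largest called changes and 4 added later, against day 0. Of these, 1614 were the same, 41 lost a call, 4 gained one and 9 changed sign, none of the 9 called. These were Itgb1 at day 14 with upper-quartile scaling (0.044), TMM scaling (0.00016), edgeR (0.0065), the length and GC trend removed (0.017) and 1 library left out (range -0.18 to 0.12), Itgb1 at day 21 with quantile normalization (-0.083), and Fgfr1 at day 21 (range -0.052 to 0.083 with 1 library left out).

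Libraries with the same number at different times did not deviate together (correlations of -0.036 to 0.074). The labels name no shared batch and do not state whether such libraries come from a shared preparation. With the number as a replicate block, all 60 values of the 10 genes kept their direction and call, with 7, 7 and 9 of them called at days 7, 14 and 21 against day 0, and the calls over all genes were 7443, 9522, 7973, 6960, 4521 and 949, against 7492, 9569, 8031, 7038, 4664 and 1182 without it. Depth limits the low values, since Ahsg had 8 reads at day 0.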
